A study of Mus musculus with 12 samples.

Results

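The interferon ligands and their receptors are 6 genes here: the ligands Ifnb1 and Ifng, the type I receptor subunits Ifnar1 and Ifnar2, and the type II receptor subunits Ifngr1 and Ifngr2. They were taken by gene name from the 20459 genes tested, and the probe with the highest mean signal over the 12 arrays stood for each gene. All 6 passed the filter on dim probes, Ifng through the recovered group only and Ifnb1 through the LPS-treated groups only. A gene that passes in this way has to differ between groups, so passing is no result.

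The cells were macrophages grown from mouse bone marrow, read on 12 single-colour Agilent arrays, 3 for each of 4 groups. Donors were female C57BL/6 animals, 6 to 8 weeks old, whose marrow was kept in L929-conditioned medium over 7 days to yield macrophages, and the labels speak of 3 independent experiments. The untreated group had no lipopolysaccharide (LPS, a component of the outer membrane of Gram-negative bacteria), and the acute group had a single exposure of 4 h. The tolerant group had a first exposure of 8 h, then 16 h without LPS, then a second exposure of 4 h. In the recovered group the pause between the same exposures lasted 88 h by the descriptions of the samples, against 2 to 4 days in the treatment protocol. Cells that had the first LPS and the rest without the second LPS were not analysed here, nor untreated cells kept for as long as the recovered ones, so time in culture and the earlier LPS cannot be told apart. The cells are a bulk population, in which fewer cells that make a transcript and less transcript per cell cannot be told apart. Of 12 macrophage markers, 11 were well above background on all 3 arrays of every group. By group, the same held for 4 or 5 of 6 plasmacytoid dendritic cell, 4 of 8 neutrophil and 6 or 7 of 20 NK and T cell markers. It also held for 2 to 5 of 8 fibroblast markers and 1 of 5 B cell markers, so this count is no measure of purity. Arrays of a group correlated at r of 0.980 to 0.994 across genes.

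Interferon beta, encoded by Ifnb1, is the first type I interferon that macrophages make after Toll-like receptor 4 senses LPS, by way of the adaptor TRIF, the kinase TBK1 and the factors IRF3 and NF-kB. It binds IFNAR1 and IFNAR2 on the same and neighbouring cells, where JAK1 and TYK2 start a signal that turns on a large set of antiviral genes through a complex with STAT2 and IRF9. Interferon gamma, encoded by Ifng, is made mainly by NK and T cells, binds IFNGR1 and IFNGR2, signals through JAK1 and JAK2, and is the classical activator of macrophages.

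Values are log2 of the spot intensity after scaling each array by its 75th percentile, and a difference between groups is a log2 fold change. Levels of different probes are not comparable, because each probe hybridises with its own efficiency, and each gene is therefore compared only with itself. A gene was called in a comparison where limma's moderated test, adjusted over all 20459 genes, gave an adjusted p under 0.05. The 6 comparisons share groups, and the 3 against untreated cells share the same 3 control arrays.

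Ifnb1 was at background in untreated cells and high after a first LPS exposure, far lower when LPS was given again after the short rest, and high again when it was given after the long rest. On the 3 untreated arrays its level was 2.01, 2.22 and 2.03, not well above background on any of them. On the acute arrays it was 14.68, 14.46 and 12.50, on the tolerant arrays 9.76, 8.72 and 7.90, and on the recovered arrays 13.22, 11.87 and 11.41. The untreated arrays were below all others and the tolerant arrays below every acute and recovered array, while acute and recovered arrays overlapped. Replicate 3 was the lowest array in each of the LPS-treated groups.

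**Figure D1:**
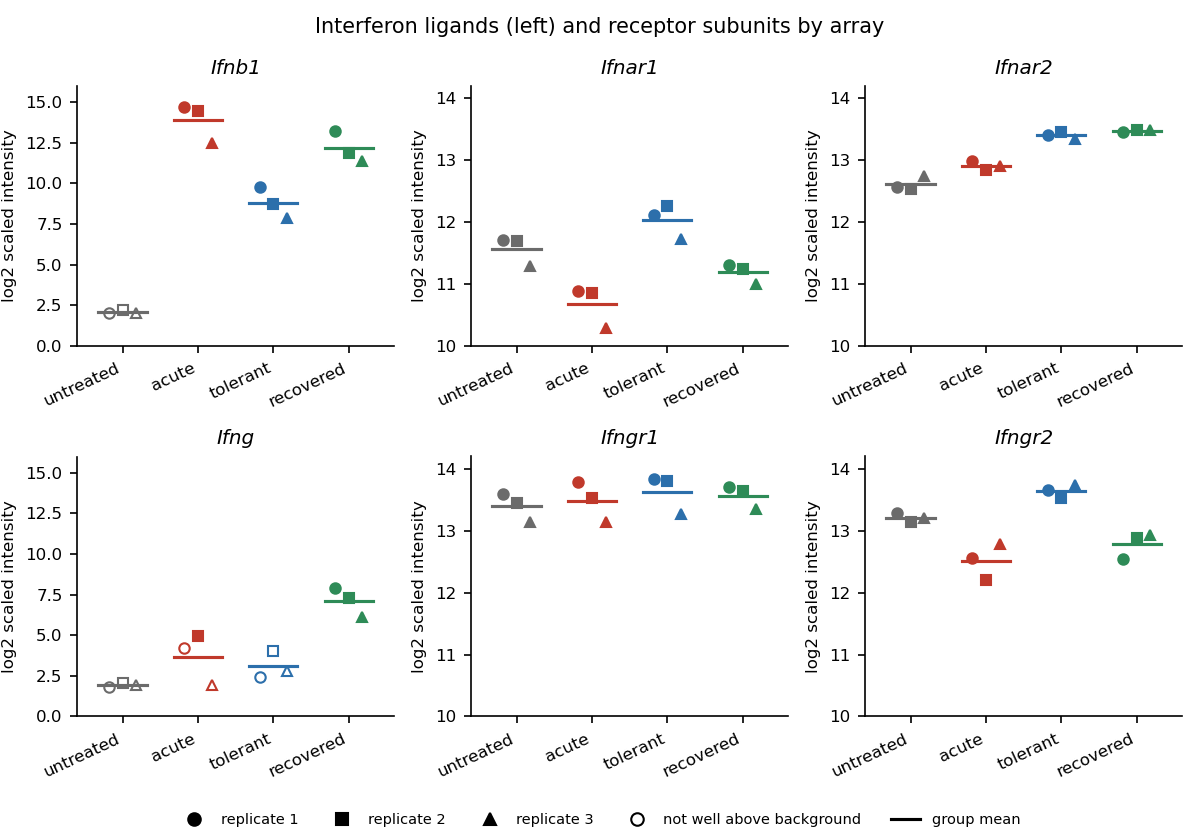
Level of the 6 genes on each of the 12 arrays, as log2 scaled intensity (vertical axes) by group (horizontal axes), with the ligands on an axis from 0 to 16 and the receptor subunits on narrower axes from 10. Symbols are replicates, open symbols are arrays where the probe was not well above background, and lines are group means of 3 arrays. Ifnb1 is lower on every tolerant array than on any acute or recovered array, Ifng is above background on all 3 recovered arrays, and Ifngr1 overlaps in all groups.

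The probe of Ifnb1 covers chromosome 4, 88168023 to 88168082 in the mm9 build, bases from position 616 of the transcript NM_010510. Against the dimmest signal that counted as well above background on the untreated arrays, the acute level was at least 965-fold higher (limma, adjusted p = 1.36e-07), with group means of 13.88 ± 1.20 and 2.09 ± 0.12 (SD, n = 3). In the same terms the recovered level, 12.17 ± 0.94 (SD, n = 3), was at least 294.8-fold higher than untreated (limma, adjusted p = 4.47e-07). The tolerant level, 8.79 ± 0.93 (SD, n = 3), was at least 28.45-fold higher than untreated (limma, adjusted p = 2.65e-05). Second exposure after the short rest thus still gave a signal above background on every array. Ifnb1 entered the test through the LPS-treated groups, and with no filter these calls stood (limma, adjusted p = 8.33e-07, 2.47e-06 and 0.00011).

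Between the LPS-treated groups, Ifnb1 was 33.9-fold lower in tolerant than in acute cells, a log2 difference of -5.08 ± 0.63 (SE; limma, adjusted p = 0.000304). Within the 3 slides, each of which held both groups, the difference was -4.92, -5.74 and -4.59. Without acute replicate 3, the lowest acute array, it was -5.78, and the difference of acute from untreated cells was 12.48 in place of 11.79. After the long rest Ifnb1 was 10.4-fold higher than after the short rest, by 3.37 ± 0.63 (SE; limma, adjusted p = 0.0042), with 3.83 and 3.51 within the slides that held both groups. Recovered against acute cells gave -1.71 ± 0.63 (SE) with a 95% interval of -3.10 to -0.32, which was not called (limma, adjusted p = 0.234). With the replicate number as a block it was called (limma, adjusted p = 0.0283). The order of the group means was untreated, tolerant, recovered and acute.

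In the authors' deposited table, which holds log2 values with the same median on every array, the Ifnb1 spot reads 9.58, 9.97 and 7.16 on the untreated arrays, in contrast to the scanner files. There the mean signal of the spot was 31.75, 31.0 and 47.1 intensity units over local backgrounds of 35, 36 and 44. On the acute arrays the mean signal was 19880, 18590 and 6269. Fitted on the authors' deposited table, the tolerant level exceeded the untreated one by only 0.82 and was not called (limma, adjusted p = 0.449). On untreated array 1, 16 of 22438 spots with a processed signal under 3 on the log2 scale had an authors' value above 8, on array 2 it was 21 of 23603 and on array 3 it was 0 of 19196. What the authors did to these spots is not given in the sources used here.

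Ifng, in contrast, was well above background throughout only in recovered cells. Its level was 1.82, 2.06 and 1.93 on the untreated arrays and 2.40, 4.04 and 2.78 on the tolerant arrays, not well above background on any of these 6 arrays. On the acute arrays it was 4.20, 4.92 and 1.92, well above background on 1 of the 3. On the recovered arrays it was 7.88, 7.30 and 6.11, above every array of the other groups. The probe covers chromosome 10, 117882841 to 117882900 in mm9, from position 1099 of NM_008337, on 2 spots per array.

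Recovered cells, with a mean of 7.10 ± 0.90 (SD, n = 3), had at least 8.77-fold more Ifng signal than the limit on untreated arrays (limma, adjusted p = 0.000169). Against the limit on tolerant arrays the difference was at least 6.70-fold (limma, adjusted p = 0.00297). Since Ifng entered the test through the recovered group, the fit of all genes with no filter is given beside these, and both were called there (limma, adjusted p = 0.000547 and 0.00783). Acute cells, 3.68 ± 1.57 (SD, n = 3), had Ifng well above background on 1 array only, so the fitted difference of recovered from acute cells is no measure of a fold. It was 3.42 ± 0.71 (SE; limma, adjusted p = 0.0389), and it was 2.67 and 4.19 within the slides that held both groups. That last call was lost with no filter (0.0839), with only these groups in the fit (0.112), with quantile normalization (0.0505) and in 7 of the 12 fits that each left out 1 array: acute replicate 1 or 2, any recovered array, or untreated replicate 1 or 2 (adjusted p of 0.0542 to 0.134). Without acute replicate 2 the difference was 4.04 and without acute replicate 3 it was 2.53. Acute cells had Ifng above background on 1 array and untreated cells on none, so their fitted difference of 1.74 ± 0.71 (SE; limma, adjusted p = 0.0903) is no measure of a fold. That fitted difference passed with the replicate block (0.0283), with the slide as a block (0.0186), without the second scan day (0.00895) and without acute replicate 3 (0.00446), the array on which Ifng lay at its untreated level. Tolerant and untreated cells were both below background, so no fold is given for them (limma, adjusted p = 0.315).

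Because NK and T cells are the usual makers of interferon gamma, 20 of their marker genes were read on the same arrays. Their summed intensity lay between 7626 and 9871 on untreated, 9644 and 11480 on acute, 8154 and 8594 on tolerant and 10750 and 12090 on recovered arrays, and the sum, which adds different probes, describes the arrays and is no measure of a share of cells. On no array of the group were 11 markers well above background in untreated, 7 in acute, 10 in tolerant and 9 in recovered cells, and on all 3 arrays 7, 6, 6 and 7 were. Cd3e, Cd4, Nkg7, Prf1, Lck and Cd247 were well above background on all 12 arrays. Cd2, Cd3g, Cd8a, Klrd1 and Eomes were well above background on 0 of the 12 arrays and Ncr1 on 0 tolerant and recovered ones, while Cd3d was well above background on 2 recovered arrays and on no other. Of the 7 markers that could be tested, Lck (2.94 ± 0.18, adjusted p = 3.02e-07) and Cd247 (1.38 ± 0.18, adjusted p = 0.000107) were higher in recovered than in untreated cells by limma (SE). Lck, a kinase of T cell receptor signalling, was also higher in acute cells (3.35 ± 0.18, SE; limma, adjusted p = 1.21e-07). Ifng in acute cells was not called in the main fit and was called with the replicate block (limma, adjusted p = 0.0903 and 0.0283). Against tolerant cells, recovered cells were higher in Lck (2.48 ± 0.18, SE; limma, adjusted p = 3.05e-05) and Prf1 (0.50 ± 0.14, SE; limma, adjusted p = 0.0251), the latter encoding perforin. With the replicate block Cd3e (0.37 ± 0.11) and Cd4 (0.41 ± 0.12) were called as well (SE; limma, adjusted p = 0.0241 and 0.0218), so 4 of the 7 were higher. With that block 45.1% of all genes were called in recovered against tolerant cells, 55.9% of them higher. Cd247 was with that block higher in recovered than in acute cells (0.69 ± 0.15, SE; limma, adjusted p = 0.0232), where 10.7% of all genes were called. Gzmb, not tested because no group had it well above background on all 3 arrays, was so on 0 untreated, 2 acute, 1 tolerant and 2 recovered arrays. Markers of other cells differed by list in recovered against untreated cells. Of the tested markers, 1 of 1 B cell marker (Cd79b, -3.86 ± 0.65, SE; limma, adjusted p = 0.000715) was lower, and 2 of 5 plasmacytoid dendritic cell markers were higher and 1 was lower. Of 4 neutrophil markers 2 were higher and 0 lower, and of 5 fibroblast markers 3 were higher and 0 lower. Over all genes 18.5% were higher and 16.9% lower in that comparison. Ccr9, Pdgfrb, Dcn and Fbn1 passed the filter through LPS-treated groups only, and Spib passed without the recovered group. The filter thus favoured a lower Spib and higher values of the others in recovered cells. The part of other cell types in the Ifng signal was not tested.

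The bases before the transcription starts of the ligand genes are shown because Ifnb1 and Ifng were both dim in untreated cells and differed in which LPS group was highest. They are the 250 bases upstream of the start in RefSeq on GRCm38.p6, chr4:88522795-88523044 on the minus strand for Ifnb1 and chr10:118440796-118441045 on the plus strand for Ifng, written 5′ to 3′. Capitals mark matches on either strand to the interferon regulatory factor core AANNGAAA, the NF-kB site (GGGA and TTCC with any 2 bases between them), the STAT-type GAS element TTCNNNGAA and the TATA sequence TATAAA.
Ifnb1: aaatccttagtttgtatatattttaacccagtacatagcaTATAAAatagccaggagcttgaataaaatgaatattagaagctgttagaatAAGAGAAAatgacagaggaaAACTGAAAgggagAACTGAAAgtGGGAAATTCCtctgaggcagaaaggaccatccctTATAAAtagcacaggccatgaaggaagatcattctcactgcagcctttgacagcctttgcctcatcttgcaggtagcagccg
Ifng: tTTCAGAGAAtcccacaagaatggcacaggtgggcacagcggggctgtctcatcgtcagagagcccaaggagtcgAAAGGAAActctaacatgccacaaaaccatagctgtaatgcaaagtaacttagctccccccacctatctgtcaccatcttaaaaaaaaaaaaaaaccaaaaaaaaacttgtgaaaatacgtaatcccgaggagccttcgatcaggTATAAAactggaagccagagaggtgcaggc

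The Ifnb1 stretch held 3 interferon regulatory factor cores between 159 and 119 bases before the start and 1 NF-kB match starting 116 bases before it. It also held 2 TATA sequences, at 210 to 205 and 82 to 77 bases. The Ifng stretch held 1 such core at 175 to 168 bases, 1 GAS match at 249 to 241 bases and a TATA sequence at 30 to 25 bases. Among all 32851 promoter windows of the same length, 21.3% held the core, 1.21% the NF-kB match, 7.02% the GAS match and 12.4% the TATA sequence. A match is a description of letters and not a site of binding.

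Ifnar1, the type I receptor subunit that carries TYK2, was lower after a first LPS exposure and highest in tolerant cells on its brightest probe. That probe read 11.71, 11.69 and 11.29 on untreated, 10.89, 10.86 and 10.29 on acute, 12.12, 12.26 and 11.72 on tolerant and 11.31, 11.25 and 11.01 on recovered arrays. Acute arrays were below all others and tolerant arrays above all others, while recovered and untreated arrays overlapped. Acute cells were 1.84-fold lower than untreated cells, by -0.88 ± 0.21 (SE; limma, adjusted p = 0.00801), with -0.82, -0.83 and -0.997 within the slides.

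Tolerant cells had 2.56-fold more Ifnar1 signal on that probe than acute cells, by 1.35 ± 0.21 (SE; limma, adjusted p = 0.00116). Recovered cells were below tolerant ones by -0.85 ± 0.21 (SE; limma, adjusted p = 0.017), a call that was lost without recovered replicate 3 (0.0629) or without tolerant replicate 1 (0.0585) or 2 (0.0669). The remaining pairs, tolerant above untreated (0.47 ± 0.21, SE; adjusted p = 0.154), recovered below untreated (-0.37 ± 0.21, SE; adjusted p = 0.198) and recovered above acute (0.51 ± 0.21, SE; adjusted p = 0.302), were not called by limma. All 3 were called with the replicate number as a block (adjusted p = 0.00553, 0.0113 and 0.0142). In the order acute, recovered, untreated and tolerant, no neighbouring pair was called without a block. All 3 were also called with the slide as a block (0.0192, 0.0131 and 0.00447) and in the authors' deposited table (limma, adjusted p = 0.0269, 0.000605 and 0.0218).

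The array holds 3 probes for Ifnar1, all well above background on the 12 arrays, and they did not behave alike. They sit on chromosome 16 in mm9: the brightest at 91510673 to 91510732, from position 6918 of NM_010508, another at 91506635 to 91506693, from position 2880, and the third from position 1536, whose 60 bases stretch over 1587 bases of the genome (91503764 to 91505350). In acute against untreated cells the probes at 1536 and 2880 gave 0.17 ± 0.33 and 0.20 ± 0.16 (SE), neither called (limma, adjusted p = 0.77 and 0.438 over all probes), so the lower acute level was seen at position 6918 only. In tolerant against untreated cells these probes rose by 1.18 ± 0.33 and 1.32 ± 0.16 (SE; limma, adjusted p = 0.0275 and 0.000222). In recovered against untreated cells the probe at 2880 rose by 0.74 ± 0.16 (SE; limma, adjusted p = 0.00461), opposite in sign to the probe at 6918.

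**Figure D2:**
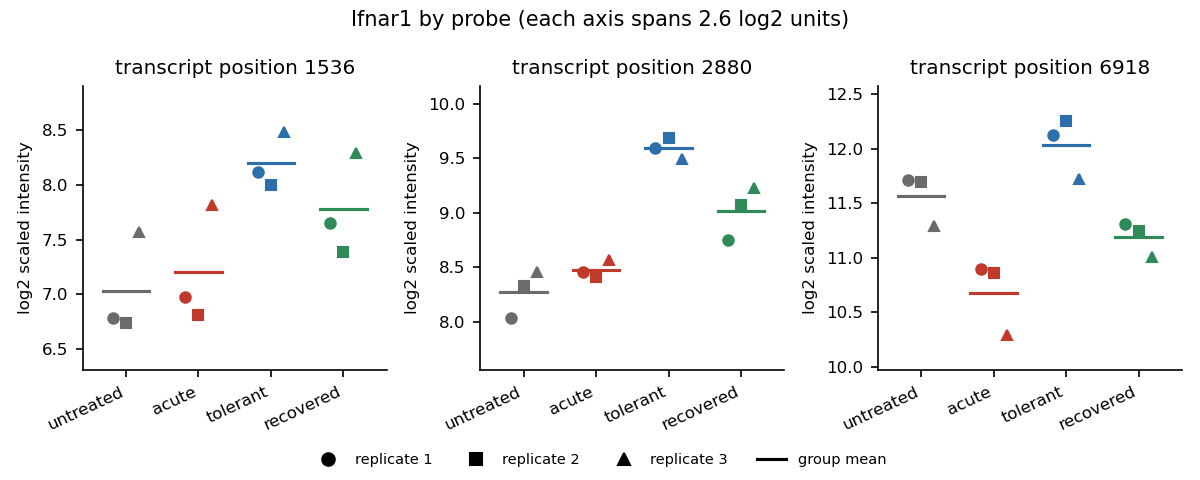
Level of the 3 Ifnar1 probes on each array, as log2 scaled intensity (vertical axes, each spanning 2.6 units at its own position) by group. Symbols are replicates and lines are group means of 3 arrays. The probe at transcript position 6918 is lowest on the acute arrays, while the probes at 1536 and 2880 are lowest on untreated arrays by their means and highest on tolerant ones.

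These probes were compared after their values were seen, so the following tests describe the disagreement only. The signal at 6918 exceeded that at 2880 by 3.29 ± 0.43 on untreated, 2.21 ± 0.41 on acute, 2.44 ± 0.18 on tolerant and 2.17 ± 0.39 on recovered arrays (SD, n = 3). An exact permutation of the 4 group labels over the arrays gave p = 0.0144 for a difference among groups (two-sided, 15400 arrangements, adjusted over the 3 probe pairs 0.0432). For 6918 against 1536 the exact permutation gave p = 0.266 over all arrays and 0.00694 when labels were exchanged only among arrays of the same replicate number (576 arrangements), and for 1536 against 2880 p = 0.965 and 0.517. The 1536 probe read highest on replicate 3 in every group and the 6918 probe lowest.

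Ifnar2, the partner subunit that binds ligand tightly and carries JAK1, was higher in both groups exposed more than once. Its level was 12.57, 12.54 and 12.75 on untreated, 12.98, 12.84 and 12.91 on acute, 13.42, 13.45 and 13.35 on tolerant and 13.45, 13.48 and 13.50 on recovered arrays, and only the tolerant and recovered arrays overlapped. It exceeded the untreated level 1.72-fold in tolerant cells, by 0.79 ± 0.12 (SE; limma, adjusted p = 0.000802), and 1.81-fold in recovered cells, by 0.86 ± 0.12 (SE; limma, adjusted p = 0.000193). Within the slides these differences were 0.84, 0.91 and 0.60 for tolerant cells and 0.93 and 0.75 for recovered cells. Its probe covers chromosome 16, 91394044 to 91394103 in mm9, from position 924 of NM_010509.

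Acute cells exceeded untreated ones by 0.29 ± 0.12 in Ifnar2 (SE; limma, adjusted p = 0.0967), which was not called and became a call with the replicate block (0.0371) and with the slide as a block (0.0297). Tolerant cells were above acute ones by 0.50 ± 0.12 (SE; limma, adjusted p = 0.0122, and 0.0531 without acute replicate 2). Recovered cells were above acute ones by 0.57 ± 0.12 (SE; limma, adjusted p = 0.041), a call that stood without tolerant replicate 3, untreated replicate 1 or untreated replicate 3 and was lost in the other 9 fits without 1 array (adjusted p up to 0.161), and with no filter (0.0759). Recovered and tolerant cells differed by 0.07, with a 95% interval of -0.19 to 0.33.

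**Figure D3:**
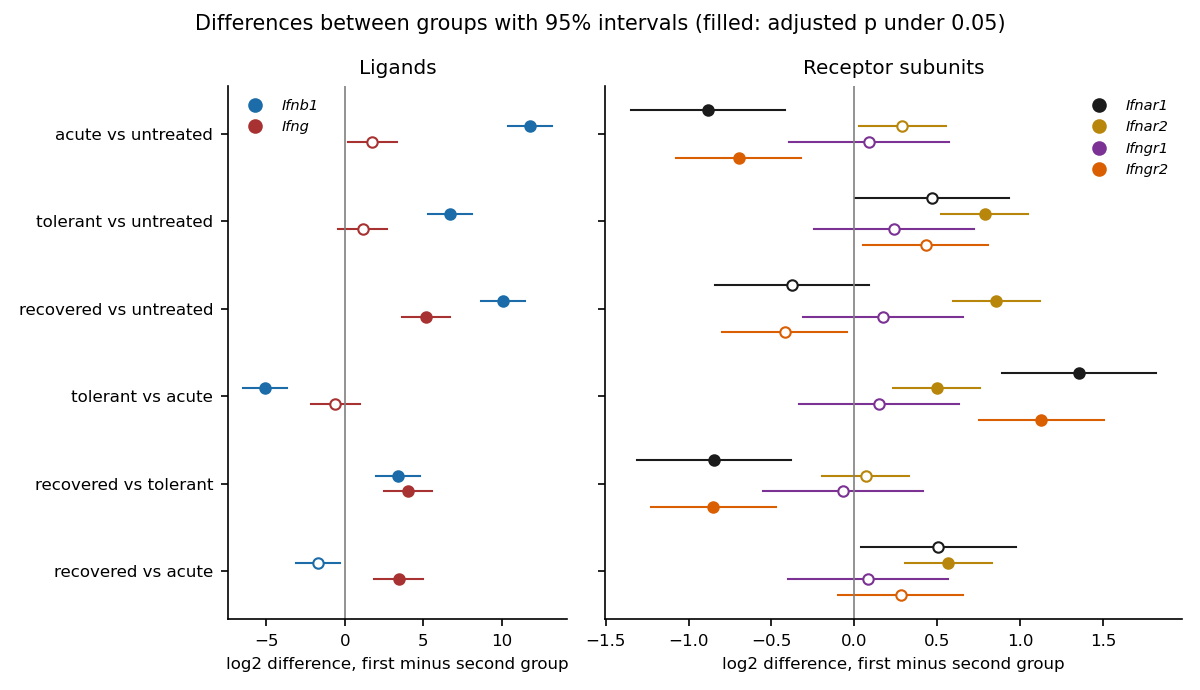
Log2 differences (horizontal axes, first minus second group) in the 6 comparisons for the ligands and the receptor subunits, with 95% intervals from the limma model over 12 arrays. Filled points have an adjusted p under 0.05. Values of Ifnb1 and Ifng against a group below background, and of Ifng against acute cells, are fitted values and no bounds. Ifnar1, shown by its probe at position 6918, and Ifngr2 lie on the same side of 0 in all 6 comparisons.

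Ifngr1, the ligand-binding chain of the type II receptor, did not pass in any comparison. It read 13.60, 13.45 and 13.13 on untreated, 13.79, 13.53 and 13.14 on acute, 13.83, 13.80 and 13.27 on tolerant and 13.71, 13.64 and 13.35 on recovered arrays. All groups overlapped, and replicate 3 was the lowest array in each. Its largest difference was 0.24 in tolerant against untreated cells, with a 95% interval of -0.24 to 0.72 (limma, adjusted p = 0.527), so a change of up to 0.72 is within the interval. In limma's F-test over the 4 groups its adjusted p was 0.782. The other 5 genes passed that test, as did 40.1% of all genes. The probe lies at chromosome 10, 19329923 to 19329982 in mm9.

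Ifngr2, the signalling chain that carries JAK2, was lower in acute cells and highest in tolerant cells. Its level was 13.28, 13.15 and 13.20 on untreated, 12.55, 12.20 and 12.78 on acute, 13.67, 13.52 and 13.73 on tolerant and 12.55, 12.89 and 12.94 on recovered arrays. Tolerant arrays were above all others, acute and recovered arrays were below all untreated ones, and acute and recovered arrays overlapped. Its probe covers chromosome 16, 91563982 to 91564041 in mm9, from position 1799 of NM_008338.

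Acute cells were 1.62-fold lower than untreated cells in Ifngr2, by -0.70 ± 0.17 (SE; limma, adjusted p = 0.00915), with -0.73, -0.94 and -0.42 within the slides. Tolerant cells were 2.19-fold above acute ones, by 1.13 ± 0.17 (SE; limma, adjusted p = 0.001). Recovered cells were 1.80-fold below tolerant ones, by -0.85 ± 0.17 (SE; limma, adjusted p = 0.00601). Against untreated cells, tolerant cells gave 0.43 ± 0.17 (adjusted p = 0.108) and recovered cells -0.42 ± 0.17 (adjusted p = 0.08) by limma (SE). Both were called with the replicate block (0.0399 and 0.033). The order was acute, recovered, untreated and tolerant, as for the brightest Ifnar1 probe.

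The 250 bases before the start of Ifngr2 (chr16:91546809-91547058 on GRCm38.p6, plus strand, RefSeq) are shown for contrast with the ligands, with capitals marking the same motifs.
Ifngr2: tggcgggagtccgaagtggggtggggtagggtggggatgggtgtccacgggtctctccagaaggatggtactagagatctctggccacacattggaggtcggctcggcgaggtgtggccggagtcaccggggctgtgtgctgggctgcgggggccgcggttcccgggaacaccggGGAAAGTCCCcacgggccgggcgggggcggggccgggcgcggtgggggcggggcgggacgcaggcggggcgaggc

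Its G and C bases made up 74.0% of the stretch and it held 25 CpG pairs, against 39.6% and 1 in Ifnb1 and 45.2% and 6 in Ifng. The median window had 52.4% and 6 pairs. Windows of Ifnar1, Ifnar2 and Ifngr1 had 65.6%, 54.0% and 59.2%. The NF-kB letters were found 1 time in Ifngr2, on the minus strand, and the GAS letters 1 time in Ifnar2 at 214 to 206 bases, while no receptor window held the core.

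Counted over the 6 genes, acute against untreated cells gave 3 calls (Ifnb1 higher, Ifnar1 and Ifngr2 lower), where 29.3% of all genes were called. Tolerant against untreated cells gave 2 (Ifnb1 and Ifnar2 higher; 19.9% of all genes) and recovered against untreated cells 3 (Ifnb1, Ifng and Ifnar2 higher; 35.4%). Tolerant against acute cells gave 4 (Ifnb1 lower, Ifnar1, Ifnar2 and Ifngr2 higher; 22.7%), recovered against tolerant cells 4 (Ifnb1 and Ifng higher, Ifnar1 and Ifngr2 lower; 20.6%) and recovered against acute cells 2 (Ifng and Ifnar2 higher; 2.04%). Ifng and Ifnb1 had to differ to pass the filter, so nothing is read from their part in these counts, and neither call of recovered against acute cells stood with no filter. By direction, 14.3% of all genes were higher and 15% lower in acute, 11.3% and 8.63% in tolerant and 18.5% and 16.9% in recovered against untreated cells. Tolerant against acute cells had 12% higher and 10.6% lower, recovered against tolerant cells 11% and 9.62%, and recovered against acute cells 1.46% and 0.582%, the background of the gene lists given further on. With the replicate block the shares of all genes called were 43.5%, 37.5%, 52.6%, 44.5%, 45.1% and 10.7% in the same order, so the added calls stand beside a larger background. Of all called genes in acute against untreated cells 48.8% were higher, or 36.3% where the percentile was taken over probes above background on every array, a scaling that moved the median of all genes from 0.02 to -0.13, and no gene of the 6 changed sign with that scaling where it was called.

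Genes with the most similar pattern over the 12 arrays, among 14255 candidates with a reference name, are given with Pearson's r as a description, since arrays share groups and slides. For Ifnb1 they were Rgl1 (0.992), Ifih1 (0.991) and Ccrl2 (0.990). For Ifng they were Extl2 (0.959), Pam (0.945) and Rcor2 (0.944), of which Extl2 was 2.00-fold higher in recovered than in untreated cells (limma, adjusted p = 0.000506). For the Ifnar1 probe at 6918 they were Ssh3 (0.992), Fbxo46 (0.978) and Pef1 (0.975), and for Ifnar2 Fscn1 (0.976), Ctla2b (0.970) and Saa1 (0.968). For Ifngr1 they were H2-Eb1 (0.967), Rpn2 (0.960) and Surf4 (0.957), and for Ifngr2 Fgd3 (0.987), Slc16a13 (0.983) and Zmynd19 (0.971). Among the 6 genes, Ifnar1 and Ifngr2 correlated at 0.771 over the arrays and at -0.626 after removal of the group means. Ifnb1 and Ifng correlated at 0.636 and 0.646, and Ifnar1 and Ifngr1 at 0.477 and 0.953.

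Other interferon ligands were read from a list of 19 genes, of which 15 were on the array and 10 were tested. The interferon alpha genes are nearly identical copies, so their probes may share signal and each value is uncertain. In acute against untreated cells 9 of the 10 were higher, with a median of 1.15 beside 0.02 over all genes. Ifna7 was tested only because it was above background on the 3 acute arrays and so had to be higher there, and without it 8 of 9 were higher (median 1.06) and 7 of 9 lower in tolerant than in acute cells (median -0.86). In tolerant against acute cells 8 were lower (median -0.95), and in recovered against tolerant cells 0 differed, or 4 with the replicate block (median 0.46). In recovered against acute cells 2 were lower, or 4 with that block. Among them were Ifna5 by -1.17 ± 0.22 (SE; limma, adjusted p = 0.0319) and Gm13271, which has the synonym Ifnz in RefSeq, by -0.92 ± 0.18 (SE; limma, adjusted p = 0.0333). The lambda receptor subunit Ifnlr1 was too dim to test, and its partner Il10rb was called only in acute against untreated cells with the replicate block (-0.38 ± 0.09, SE; limma, adjusted p = 0.00888).

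The list of receptor kinases and their partners had 7 genes, all tested. Against untreated cells 6 were higher in acute, 7 in tolerant and 7 in recovered cells, beside 14.3%, 11.3% and 18.5% of all genes. Jak2, the kinase on IFNGR2, had the largest difference in each of these groups. In acute, tolerant and recovered cells it was higher by 2.94 ± 0.21, 2.55 ± 0.21 and 3.19 ± 0.21 (SE; limma, adjusted p = 1.13e-06, 8.37e-06 and 5.86e-07). Stat2, the subunit used by the type I receptor, was lower in tolerant than in acute cells by -0.83 ± 0.14 (SE; limma, adjusted p = 0.00148) and higher in recovered than in tolerant cells by 0.63 ± 0.14 (SE; limma, adjusted p = 0.00828). Recovered and acute cells differed in Stat2 by -0.20 ± 0.14 (SE; limma, adjusted p = 0.572), which was not called.

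Of 10 genes that restrain interferon receptor signalling, 5 were higher and 2 lower in acute against untreated cells. Socs1, which blocks the Janus kinases at both receptors, was higher by 6.27 ± 0.43 in acute cells and lower in tolerant than in acute cells by -1.98 ± 0.43 (SE; limma, adjusted p = 9.63e-07 and 0.00756). Usp18, which binds IFNAR2 and limits type I signalling, was lower in tolerant than in acute cells by -1.79 ± 0.26 (SE; limma, adjusted p = 0.000774). Socs3 was called in recovered against acute cells, higher by 0.73 ± 0.13 (SE; limma, adjusted p = 0.0296). The protein phosphatase Ptpn6 and the STAT inhibitor Pias3 were those lower in acute cells.

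In the path from TLR4 to Ifnb1 (20 genes, all tested), 8 were lower and 1 higher in tolerant than in acute cells, with a median of -0.15 beside -0.05 over all genes, and 8 were higher and 1 lower in recovered than in tolerant cells (median 0.30 beside 0.09). In tolerant against untreated cells 6 were higher and 1 lower, or 10 and 4 with the replicate block. Tlr4, the LPS receptor, was lower in tolerant than in acute cells by -1.04 ± 0.27 (SE; limma, adjusted p = 0.0163). Irf5, a factor downstream of the receptor, was lower by -1.10 ± 0.13 (SE; limma, adjusted p = 0.000278). Irf3 was not called in any comparison. Irf7, the factor that extends the type I response, was 4.21 ± 0.24, 4.49 ± 0.24 and 4.40 ± 0.24 above untreated in acute, tolerant and recovered cells (SE; limma, adjusted p = 2.06e-07, 3.19e-07 and 1.35e-07), and its tolerant and acute levels differed by 0.28 ± 0.24 (adjusted p = 0.434). Irf8, a partner factor in this list and among the gamma targets, was lower in recovered than in acute cells by -1.43 ± 0.19 (SE; limma, adjusted p = 0.0101).

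**Figure D4:**
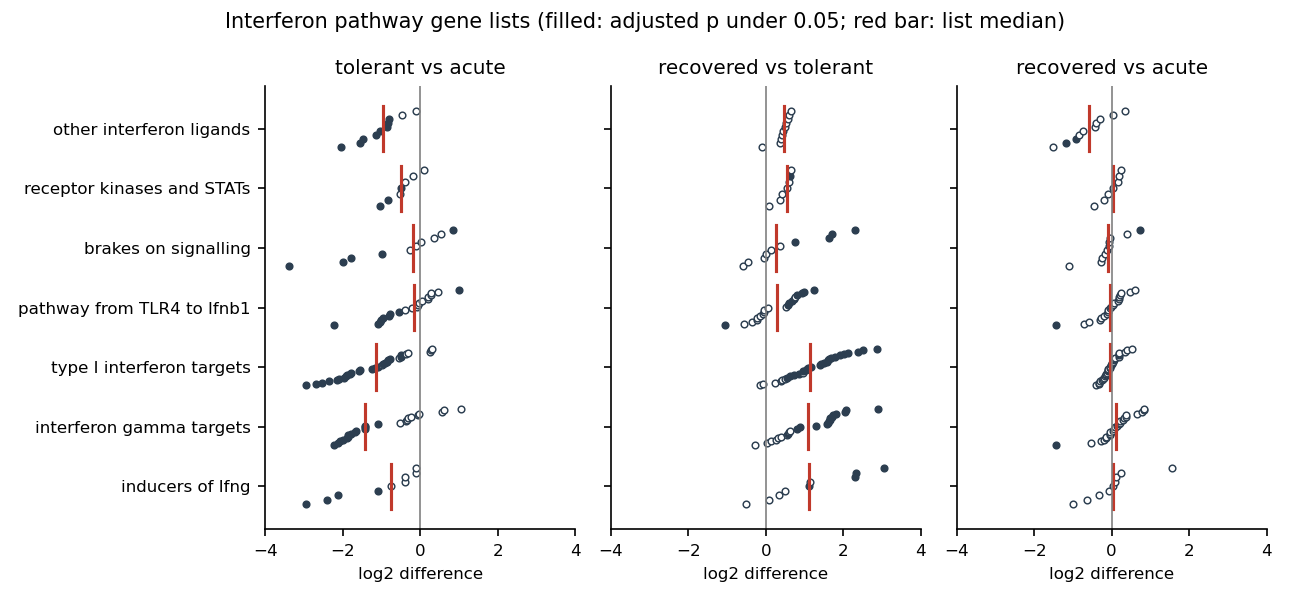
Log2 differences (horizontal axes) of the genes of 7 interferon pathway lists between the LPS-treated groups, 1 point per gene, filled where the adjusted p was under 0.05, with the list median in red. In tolerant against acute cells 23 of 30 type I targets lie at filled points below 0 and in recovered against tolerant cells 23 lie at filled points above 0.

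All 30 listed targets of type I interferon were tested and all were higher than untreated in the acute, tolerant and recovered groups, with medians of 4.07, 2.78 and 4.10. In tolerant against acute cells 23 were lower and 0 higher (median -1.13), and in recovered against tolerant cells 23 were higher and 0 lower (median 1.13). In recovered against acute cells 0 differed (median -0.04). Since 2.04% of all genes were called in that last comparison, a count of 0 is close to the share over all genes. Rsad2, which encodes the antiviral enzyme viperin, was lower in tolerant than in acute cells by -2.53 ± 0.22 (SE; limma, adjusted p = 5.25e-05). Ifih1, the RNA sensor whose pattern was among the most like that of Ifnb1, was lower by -2.35 ± 0.27 (SE; limma, adjusted p = 0.000185). Bst2, which tethers virus particles at the cell surface, was not among them (0.25 ± 0.15, SE; limma, adjusted p = 0.261). Several targets, such as Cxcl10, also respond to LPS directly.

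The 25 listed targets of interferon gamma included 24 tested genes, of which 18, 17 and 17 were higher than untreated in acute, tolerant and recovered cells. In recovered cells, the group with Ifng above background on all arrays, 0 targets were higher and 1 was lower than in acute cells (median 0.12 beside 0.04 over all genes). Of all genes 1.46% were higher and 0.582% lower in that comparison. With the replicate block 2 targets were higher and 1 lower, where 10.7% of all genes were called in either direction. The class II genes Cd74, H2-Aa, H2-Ab1 and H2-Eb1 and their activator Ciita were not called in any comparison without a block. With the replicate block 4 of these 5 were higher in recovered than in untreated cells, where 52.6% of all genes were called in either direction. Among the 4 were H2-Aa by 1.13 ± 0.20 (SE; limma, adjusted p = 0.00113) and H2-Eb1 by 0.98 ± 0.22 (SE; limma, adjusted p = 0.00457), while Ciita gave 0.83 ± 0.32 (SE; adjusted p = 0.057). H2-Aa and H2-Ab1 were then also higher in recovered than in acute cells (0.83 ± 0.20 and 0.79 ± 0.21, SE; limma, adjusted p = 0.0314 and 0.0458). Irf1, an early target of interferon gamma, was lower in tolerant than in acute cells by -2.13 ± 0.14 (SE; limma, adjusted p = 1.34e-05). Iigp1, an immunity-related GTPase, was higher in recovered than in tolerant cells by 2.90 ± 0.30 (SE; limma, adjusted p = 0.000178), and against acute cells it gave 0.84 ± 0.30 (SE; limma, adjusted p = 0.224).

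Of the 14 genes listed for the induction of Ifng (cytokines that drive it and their receptors and factors), 9 were tested and 6 were higher than untreated in each LPS-treated group. Against acute cells 4 of the 9 were lower in tolerant cells, with a median of -0.75 beside -0.05 over all genes. In recovered against acute cells 0 differed, beside 2.04% of all genes. In recovered against tolerant cells 4 of the 9 were higher, or 6 with the replicate block. Il27, a cytokine subunit that acts on T cells, was lower by -2.94 ± 0.23 (SE; limma, adjusted p = 2.45e-05) in tolerant than in acute cells. Il12b, a subunit of interleukin 12, was lower by -2.12 ± 0.43 (SE; limma, adjusted p = 0.00529). Il12a, the partner of Il12b in interleukin 12, was higher in recovered than in tolerant cells by 2.30 ± 0.37 (SE; limma, adjusted p = 0.00181). Il12a passed the filter on dim probes through the acute and recovered groups only. The filter thus favoured that difference and its place among the 4 higher genes. Against acute cells its recovered level gave 1.55 ± 0.37 (SE; limma, adjusted p = 0.0596), which became a call with the replicate block (0.026). Il12a and Il12b were not well above background on any untreated array, so their fitted differences from untreated cells are not given. The filter likewise favoured their part in the counts against untreated cells.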

How the data were processed

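RNA (200 ng) was hybridised to 12 single-colour arrays. Per the file headers, Agilent Feature Extraction 10.7.3.1 subtracted background within each array to give the spot intensity used here, and probe positions are on mm9. The authors' deposited table holds log2 values of these arrays. The submitters' processing notes name limma without a version, and the normalization of the table is not given in the sources used here. Each of its 12 columns matched its own array best, with the same direction, and all columns share a median of 5.339. It served as an alternative only.

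The 75th percentile of the log2 intensity (8.04 to 9.38 by array) was subtracted and the mean percentile added back. Outlier spots were dropped, and 0 were saturated. A probe was kept if some group had it well above background on every one of its 3 arrays (28046 probes), and the brightest stood for a gene. One limma model (version 3.58.1, R 4.3.3) held all 12 arrays in 4 groups with no block, with two-sided tests and Benjamini-Hochberg adjustment over 20459 genes. It was tested on simulated data. Tables were read with data.table (version 1.17.8), and figures were drawn with Python 3.11.15 and matplotlib 3.10.9.

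A fold against a group below background was taken against the lowest signal well above background on each of that group's arrays, as "at least". The number of arrays limits the precision. The labels speak of 3 independent experiments but do not say whether these used separate animals. The p-values thus measure the spread between these arrays, and how much of it is technical cannot be told.

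Slide 1 held the first replicates except the recovered one, which lay on slide 2 with the second replicates. Slide 3 held the third replicates and had a scan day of its own. The sample titles number the replicates, and the labels speak of 3 independent experiments. With group means removed, arrays of equal number correlated across genes at r of 0.275 to 0.773 (18 pairs), against a median of -0.368 for 36 pairs of unequal number. Removing the means ties both kinds of pair together: where equal numbers correlate above 0, unequal ones tend below 0. The contrast between them is therefore no separate support. Number and slide nearly coincide, so a shared experiment and a shared slide cannot be told apart. The numbers were used to pair the samples in a block beside the main fit, which has none. The fit with that block is given beside a result where it changes a call.

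The 6 genes, the gene lists and the rule for similar genes (the 3 with the highest r) were chosen with earlier results of these data known, so list counts are descriptions and no independent evidence. From each list the up to 4 called genes with the largest difference, or the one with the smallest p, could be named, beside Jak1, Jak2, Tyk2, Stat2, Irf9, Socs1, Socs3 and Usp18. Irf3, Bst2, Ptpn6, Pias3, the class II genes and single markers were named after their values were seen. Other processing choices were tried as alternatives: the authors' values, background correction, scaling, filter, probe choice, blocks, scan day and each array left out. Promoter sequences are from RefSeq, GRCm38.p6, with 1 entry for each of the 6 genes. That of Ifnar1 starts elsewhere than its gene entry and is not printed. Where probes lie relative to exons was not analysed here. One gene of the pathway is not reported here. The block for the gene lists, and the ligand list without Ifna7, were added after the data were seen.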

Additional observations from a re-analysis of the deposited data

How the results depend on the processing

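Over all fits tried for the 6 genes and 6 comparisons, a call stayed a call or a non-call stayed a non-call in 774. A call was lost in 32 and gained in 30, and in 4 the sign turned with a call before or after. Among the 774, 19 fits turned the sign of a difference that was called neither before nor after, most of them in Ifngr1. The 4 belong to Ifnar1: acute against untreated gave 0.17 at the probe at position 1536 and 0.20 at 2880, and recovered against untreated gave 0.37 as a mean of the probes and 0.74 at 2880. As a mean of the probes, Ifnar1 in acute against untreated cells gave -0.17 and was not called. At 1536, recovered against tolerant gave -0.42, and tolerant against untreated was called at 1536 (1.18), at 2880 (1.32) and as a mean (0.99).

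Recovered against acute cells was no call in Ifnar2 without the filter (0.57), with those groups alone (0.57), with the percentile over probes above background on every array (0.58), with quantile normalization (0.54) and without the second scan day (0.56). The same comparison of Ifng was no call without the filter (3.42), with those groups alone (3.42) and with quantile normalization (3.24). With those groups alone, tolerant against acute was no call in Ifnar2 (0.50). With the authors' values, tolerant against untreated was no call in Ifnb1 (0.82).

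The replicate block added calls for Ifnar1 in tolerant (0.47) and recovered (-0.37) against untreated and recovered against acute cells (0.51), for Ifnar2 (0.29) and Ifng (1.74) in acute against untreated, for Ifnb1 in recovered against acute (-1.71) and for Ifngr2 in tolerant (0.43) and recovered (-0.42) against untreated cells, and it changed no other call of the 6 genes. The slide as a block added those of Ifnar1 (0.47, -0.37 and 0.51), Ifnar2 (0.29), Ifng (1.74) and Ifngr2 in tolerant cells (0.43). Calls of Ifnar1 were also added with the authors' values (0.33, -0.55 and 0.44), with the percentile over detected probes (-0.51) and quantile normalization (-0.52) in recovered against untreated, and without the second scan day (0.49 in tolerant and -0.42 in recovered against untreated). Ifngr2 in recovered against untreated was called with the authors' values (-0.81), normexp (-0.53), the percentile over detected probes (-0.56) and quantile normalization (-0.73), and Ifng in acute against untreated without the second scan day (2.62). The cause was not tested.

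Leaving out 1 array at a time gave -1.001 to -0.735 for Ifnar1 in recovered against tolerant, 0.53 to 0.60 for Ifnar2 and 2.53 to 4.04 for Ifng in recovered against acute, 0.46 to 0.53 for Ifnar2 in tolerant against acute and 1.12 to 2.63 for Ifng in acute against untreated. Both Ifng ranges rest on fitted values near background in acute cells. For Ifnb1 it gave 11.39 to 12.48 in acute against untreated and -5.78 to -4.64 in tolerant against acute.

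Over all genes, calls numbered 5996, 4071 and 7243 for acute, tolerant and recovered against untreated, 4640 for tolerant against acute, 4222 for recovered against tolerant and 418 for recovered against acute. The authors' values gave 9310, 7083, 11138, 7675, 7409 and 1203. The replicate block gave 7674 for tolerant against untreated, 9105, 9230 and 2198 for the last 3, and the slide block 9300, 8068, 9608, 8233 and 1600 for all but recovered against untreated. Recovered against acute gave 99 without the filter and 196 with those groups alone. Without 1 array it gave 25 to 446, and recovered against tolerant 2579 to 4510. Where scaling moved the share of higher among called genes by over 10 percentage points, the share fell from 48.8%, 56.6% and 52.3% for acute, tolerant and recovered against untreated to 36.3%, 39.6% and 38.8% (percentile over detected probes) and 37.3%, 40.8% and 38.9% (authors' values), from 56.6% and 52.3% to 45.5% and 39.9% for tolerant and recovered against untreated with quantile normalization, from 53.4% to 42.2% for recovered against tolerant with the authors' values, and from 71.5% to 60.8% (quantile) and 49.8% (authors' values) for recovered against acute cells.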
